A study of Homo sapiens with 15 samples.

Results

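Wild-type FOXL2, expressed together with SMAD3, was compared with empty vectors in HGrC1 cells, an immortalized line of non-luteinized human granulosa cells with normal FOXL2 alleles. The libraries were chosen by their labels, and 6 of the 15 libraries of the series belong to this comparison: 3 labelled with the plasmids Smad3 and FoxL2wt (FOXL2WT below) and 3 labelled Vectors. Cells of passage 14 were transfected for 4 h and then kept for 24 h without serum before RNA was taken, so the cDNAs were expressed transiently from plasmids, and FOXL2 carried an N-terminal Flag tag. The 9 other libraries received SMAD3 with the C134W form of FOXL2 (FOXL2C134W), or with either form and FOXO1-3A (FOXO1), and entered the same fit. Vectors received neither SMAD3 nor FOXL2, and SMAD3 without FOXL2 is not among the 5 conditions, so the effects of SMAD3, of FOXL2 and of both together cannot be told apart here. The labels number the replicates A, B and C but do not say whether they were separate cultures, so the p-values measure the spread between these samples, which may be technical.

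FOXL2 is a forkhead transcription factor that is needed to keep the granulosa cell fate in the ovary, where it acts on genes of steroid synthesis, apoptosis and inflammation. SMAD3 carries the signal of TGF-beta and activin from their receptors to the nucleus, where it binds DNA weakly and relies on partners, among them FOXL2. In granulosa cells the pair is known for its joint action on the follistatin gene and on genes of the extracellular matrix.

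Both transfected genes were higher than in Vectors in every library that received them. FOXL2 (chr3:138944224-138947137, minus strand, GRCh38) was at 8.37, 9.54 and 8.28 CPM (counts scaled by TMM to a common library total) in Vectors and at 562, 566 and 554 CPM in FOXL2WT, a log2 fold change of 6.01 ± 0.13 (SE) with an adjusted p of 2.1e-16. SMAD3 was at 263, 240.0 and 245 CPM in Vectors and 2889, 2821 and 2595 CPM in FOXL2WT, a log2 fold change of 3.47 ± 0.05 and an adjusted p of 4.5e-19. FOXO1, which these 6 libraries did not receive, was at 13.8, 12.2 and 13.5 CPM in Vectors and 11.8, 11.9 and 12.99 CPM in FOXL2WT, with overlapping libraries and an adjusted p of 0.64. Reads from the plasmid and from the cell's own gene are counted together. SMAD3 was also unequal among the conditions that received it, with a mean of 2768 ± 154 CPM (SD, n = 3) in FOXL2WT and 843 ± 37.4 CPM in FOXL2C134W, and FOXL2 was at 561 ± 5.89 CPM and 147 ± 27 CPM in the same conditions. A difference between these conditions therefore cannot be told apart from the amount of plasmid RNA.

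Of the cell type's defining markers, GATA4, GATA6, WT1, NR5A1 and KITLG were present in both conditions, with GATA4 the highest of these genes at 149 CPM in Vectors. FSHR had 0 counts in all 6 libraries, INHA and AMHR2 had at most 4 and 7 counts, and CYP19A1, the aromatase, had at most 1. With FOXL2 left out, the 9 other markers summed to between 247.6 and 255.3 CPM in Vectors and between 224.7 and 238.8 CPM in FOXL2WT. The luteinized markers LHCGR and HSD3B2 and the theca marker CYP17A1 had 0 counts. The luteinized markers STAR and CYP11A1 were present at low levels, with 33 to 88 and 16 to 48 counts per library. Of the other theca and stroma markers, PDGFRA had 17 to 33 counts, and INSL3, DCN and LUM had at most 2, 4 and 6. Markers of endothelial, immune and epithelial cells summed to at most 7.15, 118 and 7.99 CPM in any library, the immune sum being almost all CD68, a lysosomal protein gene that many cell types express.

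Of 13868 genes tested, 842 were differentially expressed (DEGs, 6.07%), of which 341 were higher in FOXL2WT (2.46% of the genes tested) and 501 lower (3.61%). The changes were small: 69 DEGs changed by more than 1.5-fold, 20 higher and 49 lower, and the median absolute log2 fold change of the DEGs was 0.28. In 841 of the 842 DEGs the 3 libraries of one condition did not overlap the 3 of the other, which held for 31.1% of all genes tested. Throughout, the adjusted p is that of edgeR's quasi-likelihood test with Benjamini-Hochberg adjustment over all genes tested. The count of DEGs was lower in every fit that left out 1 library, by unequal amounts. It was 305, 577 and 561 without Vectors A, B and C, and 418, 345 and 662 without FOXL2WT A, B and C. Totals ran from 14992137 to 24951854 counts per library. Vectors A stood apart by transcript length: the 2774 tested genes with the shortest transcripts had in it a median deviation of -0.061 from the mean of the 6 libraries on the log2 scale and the 2774 with the longest 0.052, against at most 0.029 in size in the other 5 libraries. Among the longest, 67 DEGs were higher and 165 lower in FOXL2WT, and among the shortest 49 and 43. With offsets for transcript length and GC content, 1567 genes were called, 702 higher and 865 lower.

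**Figure D1:**
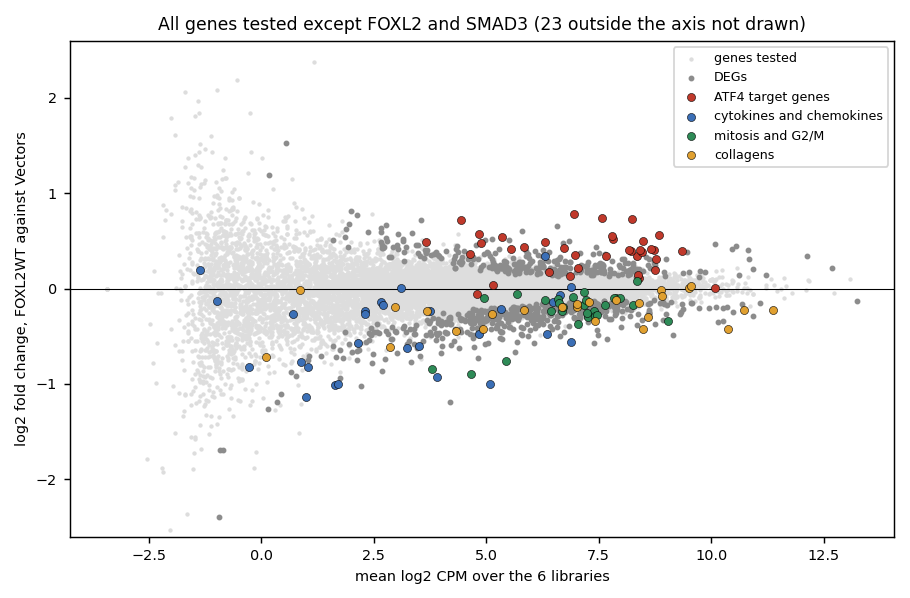
Log2 fold change of FOXL2WT against Vectors (vertical axis) over mean log2 CPM of the 6 libraries (horizontal axis) for the genes tested, without FOXL2, SMAD3 and 23 genes beyond the axis. Points in dark grey are DEGs, and coloured points are all tested members of 4 gene lists, with the ATF4 target genes lying mostly above 0 and the cytokines mostly below it.

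ATF4 target genes rose together. ATF4 is the transcription factor of the integrated stress response, whose targets supply amino acids: enzymes of serine, glycine, asparagine and proline synthesis, amino acid transporters and aminoacyl-tRNA synthetases. All 37 genes of the list were tested, and 32 of them rose (86.5%, against 2.46% of all genes) and 0 fell, with a median log2 fold change of 0.41 against 0.00 over all genes tested. In 34 of the 37 genes the libraries of FOXL2WT all lay above those of Vectors. Libraries without overlap, in either direction, were found for 31.1% of all genes tested. The number that rose was 26 to 31 without any one library and 26 to 34 under the other alternatives.

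ASNS, asparagine synthetase, was at 134.3, 154 and 151 CPM in Vectors and 242, 265 and 227 CPM in FOXL2WT, a 1.67-fold rise (log2 0.74 ± 0.06, adjusted p = 1.6e-06). PSAT1, which makes phosphoserine, was at 216.5, 249 and 240.1 CPM in Vectors and 385, 423 and 366 CPM in FOXL2WT (log2 0.73 ± 0.06, adjusted p = 1.3e-06). In both genes the lowest FOXL2WT library, C, lay well above the highest Vectors library, B. The largest log2 fold change on the list was that of TRIB3, a pseudokinase that feeds back on ATF4, at 85.2, 100.2 and 99.0 CPM in Vectors and 154, 182 and 154 CPM in FOXL2WT (log2 0.78 ± 0.09, adjusted p = 2.4e-05). CHAC1, a glutathione-degrading enzyme, had a mean of 16.9 ± 1.88 CPM in Vectors and 27.9 ± 1.71 CPM in FOXL2WT (log2 0.72 ± 0.11).

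The rest of the serine and one-carbon route moved in the same direction. PHGDH, which opens serine synthesis, rose from 186 ± 9.61 to 268 ± 10.1 CPM (adjusted p = 9.1e-06), and the mitochondrial folate enzyme MTHFD2 from 301.5 ± 14.8 to 426 ± 20.2 CPM (adjusted p = 5.5e-06). SHMT2, PSPH and ALDH1L2 of the same route had log2 fold changes of 0.41, 0.41 and 0.49. Among the transporters, SLC7A5, the light chain of the large neutral amino acid carrier, was at 355, 387 and 386 CPM in Vectors and 557.5, 571 and 538 CPM in FOXL2WT (log2 0.56 ± 0.06), its partner SLC3A2 rose by 0.42, the glutamine carrier SLC1A5 by 0.55 and the cystine carrier SLC7A11 by 0.40 on the log2 scale. The tRNA synthetases GARS1, SARS1, MARS1 and AARS1 rose by 0.41, 0.39, 0.39 and 0.34 on the log2 scale.

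ATF4 mRNA itself rose, from 394 ± 18.5 to 489.5 ± 8.91 CPM (log2 0.31 ± 0.04, adjusted p = 0.00011). The 5 members that were not called were DDIT3, which encodes the stress factor CHOP, with a log2 fold change of 0.04, ATF5 with -0.06, SLC38A2 with 0.01, EPRS1 with 0.11 and PPP1R15A with 0.14. Of the 12 genes with the highest log2 fold changes among DEGs of at least 5 CPM, 4 are on the list (TRIB3, ASNS, PSAT1 and CHAC1). The 8 others were HES6, ADM2, PCK2, ERFE, SLC1A4, FOXC1, SYBU and NKX2-5, at log2 0.72, 0.67, 0.66, 0.64, 0.61, 0.60, 0.59 and 0.58. ERFE lost its call without Vectors A, FOXL2WT A or FOXL2WT B (adjusted p of 0.051 to 0.079), and SYBU without Vectors A or FOXL2WT A (0.053 and 0.051).

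The DNA element read by ATF4 with its partners is the CARE, here searched as TGATGNAA on both strands from 250 bases before to 50 bases after each gene's start in RefSeq's promoters (GRCh38.p14). Promoters were matched by symbol for 10794 of the genes tested, of which 1.69% hold it (3.67% of all 27305 promoters in the table), against 7.33% of the matched DEGs that were higher, 2.55% of those that were lower, 8 of the 31 matched ATF4 targets tested, and 8 of the 26 matched that rose. These 8 are ASNS, CHAC1, SLC3A2, SLC7A1, CARS1, AARS1, MARS1 and NARS1. The letters TGACGTCA, to which ATF factors also bind, were in 3.25% of those of genes tested (1.98% of all promoters) and 2.56% of those of the higher DEGs. They were in 0 of the 26 ATF4 targets that rose, too few promoters to set these apart at such a share. A match describes the letters only. The 250 bases before the start of the 3 genes with the smallest p among those with a match there are shown with the match in capitals, for ASNS (chr7:97872409-97872658, minus strand), AARS1 (chr16:70289507-70289756, minus strand) and CHAC1 (chr15:40953221-40953470, plus strand), written 5′ to 3′ in the direction of the gene. The matches begin 68, 187 and 209 bases before the start.
ASNS: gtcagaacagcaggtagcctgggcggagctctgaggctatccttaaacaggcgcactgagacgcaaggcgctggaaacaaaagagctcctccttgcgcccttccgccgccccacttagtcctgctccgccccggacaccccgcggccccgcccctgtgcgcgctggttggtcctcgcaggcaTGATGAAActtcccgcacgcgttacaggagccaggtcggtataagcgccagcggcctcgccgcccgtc
AARS1: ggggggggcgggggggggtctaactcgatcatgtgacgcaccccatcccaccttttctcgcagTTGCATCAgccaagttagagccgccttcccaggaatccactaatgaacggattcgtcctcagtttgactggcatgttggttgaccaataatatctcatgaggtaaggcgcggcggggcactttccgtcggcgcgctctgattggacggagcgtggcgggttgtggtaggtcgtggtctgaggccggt
CHAC1: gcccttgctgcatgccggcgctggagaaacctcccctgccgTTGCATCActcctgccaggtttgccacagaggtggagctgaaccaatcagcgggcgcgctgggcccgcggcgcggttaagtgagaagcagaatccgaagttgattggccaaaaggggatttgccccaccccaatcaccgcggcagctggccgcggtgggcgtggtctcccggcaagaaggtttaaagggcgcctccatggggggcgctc

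**Figure D2:**
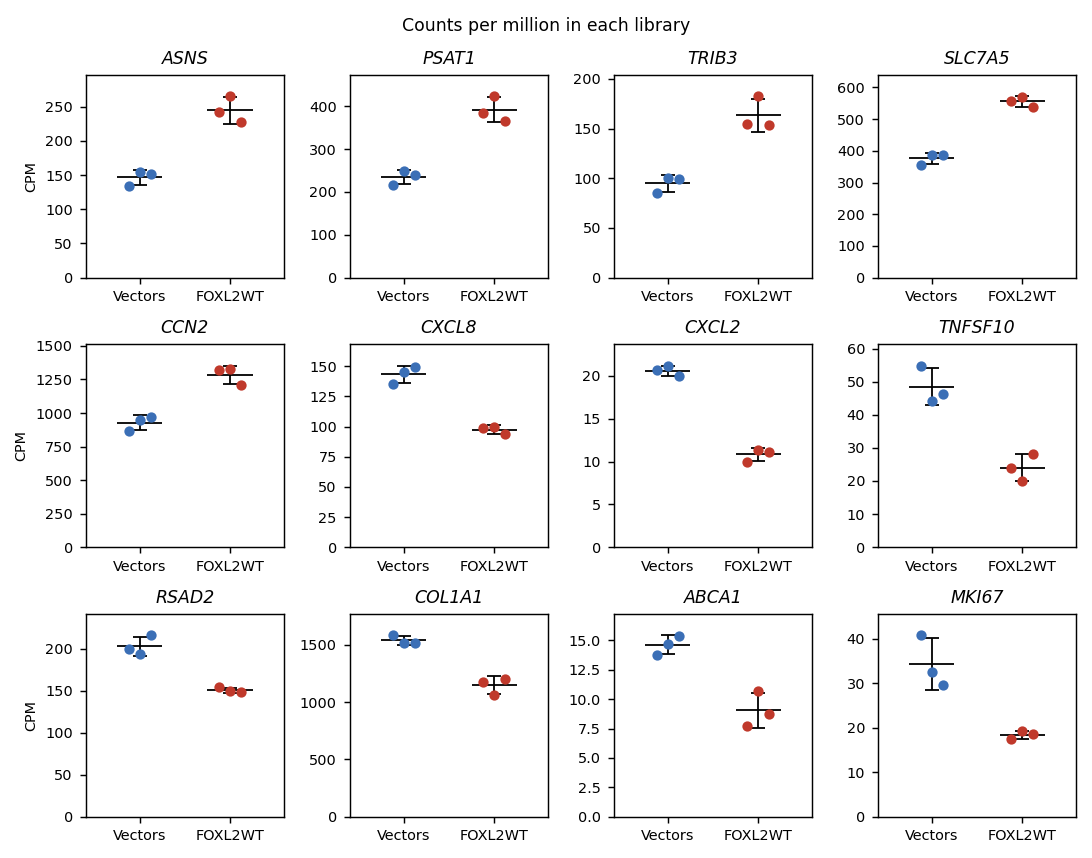
CPM (vertical axes, from 0) in the 3 Vectors and the 3 FOXL2WT libraries for 12 genes, with points for libraries, horizontal lines for means and bars for 1 SD. The FOXL2WT libraries lie above those of Vectors for ASNS, PSAT1, TRIB3, SLC7A5 and CCN2 and below them for the 7 other genes, without overlap.

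Several chaperones of the endoplasmic reticulum fell. They fold secreted proteins and their genes are raised by the ATF6 and XBP1 branches of the unfolded protein response. Of 24 genes tested, 7 fell and 1 rose (29.2% and 4.17%, against 3.61% and 2.46% of all genes), with a median log2 fold change of -0.12. The calcium-binding chaperone CALR was at 1402, 1388 and 1327 CPM in Vectors and 1076, 1056 and 1131 CPM in FOXL2WT (log2 -0.34 ± 0.03, adjusted p = 1.3e-05). HSP90B1, PDIA4, PDIA3, HSPA5, PDIA6 and HYOU1 fell as well, with log2 fold changes of -0.35, -0.29, -0.21, -0.19, -0.15 and -0.13. The gene that rose was XBP1, from 243 ± 4.49 to 284 ± 6.41 CPM (adjusted p = 0.0023). HYOU1 lost its call whichever library was left out and PDIA6 in 1 of the 6 fits. Of the 18 heat shock genes tested, HSPA1A and HSPA1B fell (11.1%, against 3.61% of all genes), at log2 -0.25 and -0.31. However, these are near-identical copies between which reads can be split.

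Many cytokines and chemokines fell. These secreted proteins recruit leukocytes and pass on inflammatory signals, and many of their genes are read by NF-kappaB. Of the 28 tested genes of the list, 12 fell (42.9%, against 3.61% of all genes) and 1 rose (3.57%, against 2.46%), with a median log2 fold change of -0.37. The number that fell was 8 to 11 without any one library. The 5 other genes of the list had too few counts to be tested.

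CXCL8, the neutrophil attractant interleukin-8, was at 136, 145.5 and 149 CPM in Vectors and 99.2, 99.7 and 93.5 CPM in FOXL2WT (log2 -0.56 ± 0.07, adjusted p = 4.4e-05). CXCL2 was at 20.7, 21.2 and 20.03 CPM in Vectors and 10.0, 11.4 and 11.1 CPM in FOXL2WT, 1.9-fold lower (log2 -0.93 ± 0.11, adjusted p = 4.1e-05). Every FOXL2WT library lay below every Vectors library for both genes. TNFSF10, the death ligand TRAIL, had the lowest log2 fold change among DEGs of at least 5 CPM, at 54.8, 44.2 and 46.3 CPM in Vectors and 24.0, 19.9 and 28.0 CPM in FOXL2WT (log2 -1.003 ± 0.12, adjusted p = 7.7e-05).

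CCL5 and CCL2, attractants of T cells and monocytes, fell from 33.7 ± 2.91 to 24.4 ± 1.76 CPM and from 96.5 ± 5.33 to 68.9 ± 6.24 CPM. The interleukin-1 genes IL1A and IL1B fell by log2 -0.60 and -0.62, and each lost its call without 1 of the 6 libraries. CXCL1 and CSF1, at log2 -0.57 and -0.21, kept their calls in 2 and 1 of the 6 fits. At low levels CXCL3, CX3CL1 and CXCL11 had log2 fold changes of -1.004, -1.01 and -1.14 with Vectors means of 4.58, 4.37 and 2.84 CPM. Reads of CXCL1, CXCL2 and CXCL3 can be split between these similar genes, so their single values are uncertain. The gene that rose was VEGFA, the endothelial growth factor, from 70.4 ± 4.97 to 89.1 ± 2.36 CPM (adjusted p = 0.001), and IL6, with a log2 fold change of -0.23, did not pass the test.

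Several feedback genes of NF-kappaB fell. NF-kappaB subunits and their inhibitors form a loop in which the factor raises its own inhibitors. Of 21 genes tested, 6 fell and 0 rose (28.6% fell, against 3.61% of all genes), 10 values were positive and the median log2 fold change was -0.01, and the 5 subunit genes NFKB1, NFKB2, RELA, RELB and REL were not called, at log2 -0.03, -0.12, 0.04, 0.17 and -0.01. NFKBIZ, an inducible regulator of the pathway, was at 66.9, 57.2 and 63.6 CPM in Vectors and 37.5, 38.3 and 42.7 CPM in FOXL2WT (log2 -0.66 ± 0.08, adjusted p = 8.6e-05). The inhibitor gene NFKBIA was at 116.5, 120.5 and 121 CPM in Vectors and 103, 105 and 104 CPM in FOXL2WT, a small difference (log2 -0.20 ± 0.04, adjusted p = 0.0027) with tight replicates. BCL3, TNFAIP3 and TNIP1 fell by log2 -0.46, -0.26 and -0.23, and BIRC3 (-0.33) kept its call in 1 of the 6 fits that left out a library. SOD2, the mitochondrial superoxide dismutase and an NF-kappaB target, fell from 213 ± 13.6 to 151 ± 10.6 CPM (adjusted p = 0.00015).

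The core of an NF-kappaB site was searched as GGGNNTTTCC on both strands in the same windows. It was in 2.22% of the matched promoters of genes tested (1.92% of all promoters), in 5.1% of those of the DEGs that were lower, in 2.93% of those that were higher, in 8 of the 19 matched cytokine genes tested (42.1%), and in 3 of the 8 matched that fell (37.5%), CXCL1, CXCL2 and CXCL3. The sequences of the 2 of these with the smallest p, CXCL2 (chr4:74099196-74099445, minus strand) and CXCL3 (chr4:74038690-74038939, minus strand), carry the match, in capitals, 78 and 79 bases before the start in nearly the same surroundings.
CXCL2: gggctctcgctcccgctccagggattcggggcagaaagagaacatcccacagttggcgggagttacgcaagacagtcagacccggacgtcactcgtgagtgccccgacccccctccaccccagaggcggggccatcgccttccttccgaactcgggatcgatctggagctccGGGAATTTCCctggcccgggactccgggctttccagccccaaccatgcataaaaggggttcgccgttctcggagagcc
CXCL3: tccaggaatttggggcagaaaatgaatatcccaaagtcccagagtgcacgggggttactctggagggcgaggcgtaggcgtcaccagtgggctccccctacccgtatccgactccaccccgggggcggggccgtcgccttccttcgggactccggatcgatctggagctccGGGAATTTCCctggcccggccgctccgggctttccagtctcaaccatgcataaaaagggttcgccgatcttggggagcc

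Interferon-stimulated genes, the antiviral genes that interferon turns on, fell in part. All 50 genes of the list were tested, and 11 fell (22%, against 3.61% of all genes) and 0 rose, with a median log2 fold change of -0.11. RSAD2, the antiviral enzyme viperin, was at 199, 194 and 216 CPM in Vectors and 154, 149.7 and 148 CPM in FOXL2WT (log2 -0.43 ± 0.07, adjusted p = 0.00066). OASL was at 385.5, 391 and 406 CPM in Vectors and 309.9, 310.2 and 322 CPM in FOXL2WT (log2 -0.33 ± 0.04, adjusted p = 9.9e-05). IFI44 fell by log2 -0.24. IFIT1, IFIT3, OAS3, IRF1, HERC5, DDX60 and SAMD9, at -0.19, -0.25, -0.15, -0.18, -0.26, -0.26 and -0.40, kept their calls in 0 to 3 of the 6 fits without a library. CXCL11 was counted with the cytokines too, and the factors STAT2, IRF7 and IRF9 of the list were not called, at log2 -0.14, 0.09 and 0.13. The number that fell depends on the libraries, being 5 without Vectors A, 5 without Vectors C, 3 without FOXL2WT A, 4 without FOXL2WT B, 4 under DESeq2 with transcript length offsets and 20 with only the 6 libraries compared. STING1, the adaptor of DNA sensing, fell from 76.4 ± 0.913 to 61.1 ± 2.94 CPM (adjusted p = 0.00098). It was the only called gene among the 14 sensors and interferons tested (7.14%).

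The interferon-stimulated response element was searched as GAAANNGAAA on both strands. It was in 2.91% of the matched promoters of genes tested (3.65% of all promoters), in 5.87% of those of the lower DEGs and 1.47% of those of the higher ones, and in 25 of the 38 matched genes of the list, 7 of them among the 10 matched genes that fell. The windows of IFI44 (chr1:78649539-78649788, plus strand) and DDX60 (chr4:168318753-168319002, minus strand), the 2 called genes of the list with the smallest p among those with a match before the start, are shown with their matches in capitals, 18 bases before the start in IFI44 and 88 and 53 bases before it in DDX60.
IFI44: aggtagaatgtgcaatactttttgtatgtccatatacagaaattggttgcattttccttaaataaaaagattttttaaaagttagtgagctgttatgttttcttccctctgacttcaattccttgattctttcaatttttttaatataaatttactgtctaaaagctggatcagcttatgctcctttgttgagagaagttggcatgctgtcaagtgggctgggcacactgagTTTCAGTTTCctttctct
DDX60: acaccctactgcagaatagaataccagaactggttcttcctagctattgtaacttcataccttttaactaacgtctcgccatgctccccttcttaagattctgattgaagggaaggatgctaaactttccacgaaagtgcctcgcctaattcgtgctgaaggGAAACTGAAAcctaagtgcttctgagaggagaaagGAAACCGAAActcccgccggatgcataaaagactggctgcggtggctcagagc

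Of 18 genes of antigen presentation by MHC class I, 5 fell (27.8%, against 3.61% of all genes) and 0 rose. Those that fell were CALR and PDIA3 (both also on the chaperone list), the loading factor TAPBP at log2 -0.31, the peptidase ERAP2 at -0.20 and HLA-E at -0.15. HLA-B and HLA-C were not called, at -0.06 and -0.05. ERAP2 lost its call whichever library was left out, and HLA-E without Vectors A, Vectors C, FOXL2WT A or FOXL2WT B (adjusted p of 0.088 to 0.12).

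**Figure D3:**
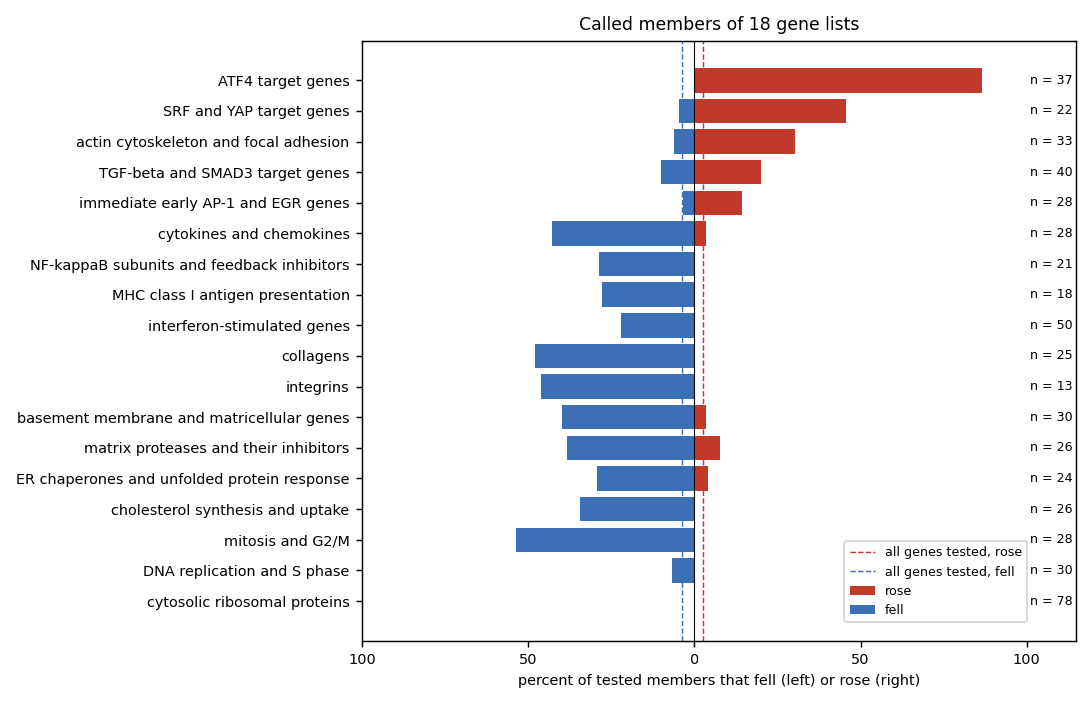
Percent of the tested members of 18 gene lists that rose (right) or fell (left) in FOXL2WT against Vectors, with the number tested at the right edge and dashed lines at the percentages over all genes tested. ATF4 target genes reach 86.5% to the right, and mitosis genes, collagens, integrins and cytokines between 42.9% and 53.6% to the left.

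Many extracellular matrix genes fell as well. Collagens and their processing enzymes build the fibrous and sheet-like matrix around the cell. Of 25 tested, 12 fell (48%, against 3.61% of all genes) and 0 rose, with a median log2 fold change of -0.23. COL1A1, the main fibrillar chain, was at 1582, 1514 and 1517 CPM in Vectors and 1178, 1062 and 1204 CPM in FOXL2WT (log2 -0.42 ± 0.05, adjusted p = 8.4e-05). COL5A1 was at 441.5, 395 and 397.5 CPM in Vectors and 324, 277 and 320.3 CPM in FOXL2WT (log2 -0.42 ± 0.07), and its 3 FOXL2WT libraries lay below all of Vectors. COL3A1, COL5A2, COL6A3 and the basement membrane chain COL4A1 fell by log2 -0.34, -0.30, -0.45 and -0.23. Without Vectors A, and likewise without FOXL2WT B, 7 collagen genes fell.

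Among 30 genes of the basement membrane and matricellular proteins, which line epithelia and tune adhesion, 12 fell (40%, against 3.61% of all genes) and 1 rose (3.33%, against 2.46%). HSPG2, the proteoglycan perlecan, fell from 247 ± 16.3 to 172 ± 6.21 CPM (adjusted p = 0.0041), the laminin chains LAMB3 and LAMA4 by log2 -0.55 and -0.44, and TNC, NID1, FN1, FBN1 and SPARC by log2 -0.31, -0.28, -0.29, -0.26 and -0.15. FN1, fibronectin, was among the most abundant, at 2243, 2094 and 2154 CPM in Vectors and 1808, 1746 and 1758 CPM in FOXL2WT. The gene that rose, THBS1, differed by log2 0.14 and kept its call in 1 of the 6 fits without a library. DESeq2 with transcript length offsets called 6 lower genes on this list.

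Of 26 matrix proteases and inhibitors, 10 fell (38.5%, against 3.61% of all genes) and 2 rose (7.69%, against 2.46%). TFPI2, a secreted protease inhibitor, was at 83.4, 77.8 and 84.0 CPM in Vectors and 54.0, 53.9 and 57.2 CPM in FOXL2WT (log2 -0.57 ± 0.06, adjusted p = 9.1e-06). The plasminogen activators PLAT and PLAU fell by log2 -0.60 and -0.39 and the gelatinase activator MMP14 by -0.25, while F3, the coagulation tissue factor, rose by 0.31. Of the 13 integrin genes tested, receptors that hold the cell to this matrix, 6 fell (46.2%, against 3.61% of all genes) and 0 rose. Among those that fell, ITGA5 was at 722, 694 and 720.0 CPM in Vectors and 628, 601 and 615 CPM in FOXL2WT (log2 -0.21 ± 0.03). Integrin calls numbered 2 without Vectors A, 3 without FOXL2WT A and 3 without FOXL2WT B. TM4SF1, a tetraspanin-like membrane protein, was the gene outside the lists with the smallest p, at 695, 680.5 and 649.9 CPM in Vectors and 467, 459 and 515 CPM in FOXL2WT (log2 -0.49 ± 0.05, adjusted p = 6.1e-06).

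Collagens and basement membrane genes have long transcripts, with medians of 3586 and 4446 bases against 2110 over all genes tested, and DEGs with long transcripts were more often lower than higher, as given above. With offsets for transcript length and GC content, an alternative chosen after seeing the data, 16 collagens and 15 basement membrane genes fell, while the lower DEGs over all genes went from 501 to 865. The part of transcript length in these results was not tested.

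**Figure D4:**
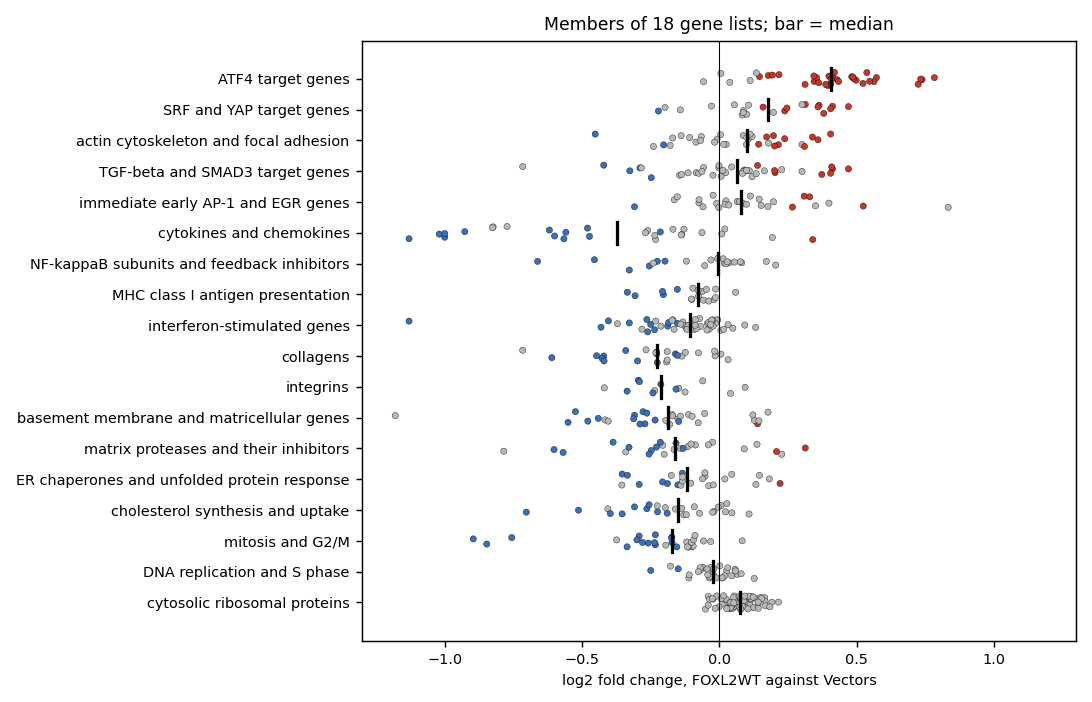
Log2 fold change of FOXL2WT against Vectors (horizontal axis) for every tested member of 18 gene lists, red where it rose, blue where it fell and grey where it was not called, with a black bar at the list's median. The median is 0.41 for the ATF4 targets, -0.37 for the cytokines, -0.23 for the collagens and 0.07 for the ribosomal proteins, which have 0 called members.

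Part of the actin cytoskeleton genes and of the targets of SRF and YAP rose. SRF, with its actin-sensing cofactors, and YAP read the tension of the cell and raise genes of contraction and adhesion. Of 22 SRF and YAP targets tested, 10 rose (45.5%, against 2.46% of all genes) and 1 fell, with a median log2 fold change of 0.18. CCN2, the matricellular connective tissue growth factor and also a TGF-beta target, was at 864, 946 and 971.5 CPM in Vectors and 1319, 1327 and 1206 CPM in FOXL2WT (log2 0.47 ± 0.05, adjusted p = 1.8e-05). Its relative CCN1 was at 1121, 1243 and 1289 CPM in Vectors and 1671, 1643 and 1546 CPM in FOXL2WT (log2 0.41 ± 0.05, adjusted p = 8.7e-05). ANKRD1, AJUBA and SRF itself rose by log2 0.38, 0.36 and 0.36, while WWTR1, which encodes the YAP homologue TAZ, fell by log2 -0.22 in mRNA. Without Vectors A the number that rose was 6, and with the length and GC offsets it was 16. WWTR1 lost its call without Vectors A (adjusted p = 0.066) and without FOXL2WT B (0.063).

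On the actin list 10 of 33 rose (30.3%, against 2.46% of all genes) and 2 fell (6.06%, against 3.61%), with 21 not called. The cytoplasmic actin ACTG1 rose from 3991 ± 238 to 5048 ± 181 CPM and the smooth muscle protein gene TAGLN from 1567 ± 173 to 2075 ± 112 CPM, with CNN2 and TPM1 at log2 0.31 and 0.20. The non-muscle myosin heavy chains MYH9 and MYH10 were the 2 that fell, at -0.20 and -0.45, and MYH9 lost its call whichever library was left out, MYH10 without Vectors A, FOXL2WT A or FOXL2WT B (adjusted p of 0.074 to 0.14). The number that rose was 4 without Vectors A, 6 without Vectors C, 5 without FOXL2WT A, 6 without FOXL2WT B and 6 under DESeq2 with transcript length offsets.

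TGF-beta and SMAD3 target genes changed in both directions, and most were not called. Of 40 genes tested, 8 rose (20%, against 2.46% of all genes) and 4 fell (10%, against 3.61%). The median log2 fold change was 0.06, and 28 genes were not called. The genes that rose were CCN2, CCN1, TAGLN, BDNF, TPM1, ANGPTL4, TGFB1I1 and THBS1, of which 5 are on the actin or the SRF and YAP list or were named above with the matrix. BDNF, a neurotrophin, was at 154, 159 and 168 CPM in Vectors and 207, 213 and 202 CPM in FOXL2WT (log2 0.37 ± 0.04, adjusted p = 2.1e-05). The feedback targets SMAD7, SMAD6, SKIL and PMEPA1 were not called, at log2 0.10, 0.16, 0.09 and 0.11. The 4 that fell were the matrix genes COL1A1, FN1, LTBP2 and LTBP3, the last with a log2 fold change of -0.33 ± 0.09 that was 0.057 under DESeq2 with transcript length offsets. TGFB1I1, THBS1, ANGPTL4, LTBP2 and LTBP3 lost their calls in 2 to 5 of the 6 fits without a library. The SMAD palindrome GTCTAGAC was in 0.12% of the matched promoters of genes tested (0.201% of all promoters). It was in 1 of the 29 matched targets and in 0 of those that rose or fell. At so low a share, the 0 does not set these targets apart from all genes.

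The machinery of the pathway changed little. Of 29 ligands, receptors and antagonists, 3.45% rose and 6.9% fell, against 2.46% and 3.61% of all genes. TGFB2 rose from 269.5 ± 2.93 to 309 ± 14.7 CPM (adjusted p = 0.0054). The pseudoreceptor BAMBI fell from 78.1 ± 2.48 to 64.0 ± 4.28 CPM (adjusted p = 0.0033). The co-receptor ENG fell by log2 -0.26, a call lost without Vectors A or FOXL2WT B (adjusted p = 0.13 in both). FST, which encodes the activin antagonist follistatin, and INHBA, the activin subunit, had log2 fold changes of 0.14 and 0.17 and did not pass the test. By edgeR 0 of the 13 SMADs and cofactors tested and 0 of the 9 BMP targets were called. At an unadjusted p under 0.05, 2 SMAD genes were higher and 2 lower, and 2 BMP targets were higher and 0 lower. DESeq2 called 1 higher and 1 lower SMAD gene and 1 higher BMP target, and the alternatives gave at most 3 higher and 2 lower SMAD genes and at most 3 higher BMP targets. The smallest p of each list belonged to SMURF2 (log2 0.15 ± 0.05, adjusted p = 0.061) and ID1 (log2 0.22 ± 0.07, adjusted p = 0.071).

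Of the 33 genes listed as FOXL2 targets in granulosa cells, 21 had enough counts to be tested. Of these, 4 fell (19%, against 3.61% of all genes) and 1 rose (4.76%, against 2.46%), with a median log2 fold change of -0.09. The gene that rose was the stress factor ATF3, at 27.0, 29.3 and 30.4 CPM in Vectors and 40.0, 46.2 and 38.9 CPM in FOXL2WT (log2 0.52 ± 0.07, adjusted p = 0.00027), with no overlap between the conditions. Those that fell were SOD2, TNFAIP3, ICAM1 and SOX9, the last a factor of the testis fate that FOXL2 holds down, at 31.3, 27.9 and 30.1 CPM in Vectors and 25.1, 21.9 and 22.4 CPM in FOXL2WT (log2 -0.36 ± 0.07, adjusted p = 0.0041). ICAM1 lost its call without Vectors A or FOXL2WT B (0.12 and 0.11). The steroidogenic genes STAR and CYP11A1 were at means of 2.98 and 2.02 CPM in Vectors and 2.06 and 1.26 CPM in FOXL2WT, with adjusted p of 0.22 and 0.13, and did not pass the test. The forkhead letters GTAAACA were in 0 of the 16 matched promoters of the tested genes on this list. They were in 2.26% of those of all genes tested (3.41% of all promoters), 1.83% of the higher DEGs and 2.81% of the lower ones. At so low a share, 0 of 16 does not set the list apart from all genes.

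Genes of granulosa identity were close to Vectors. Of 18 tested, 1 fell (5.56%, against 3.61% of all genes). It was GATA4, a factor that works with FOXL2 in these cells, at 154, 144 and 149 CPM in Vectors and 129, 131 and 138 CPM in FOXL2WT (log2 -0.16 ± 0.04, adjusted p = 0.037). Its call was lost without Vectors A, Vectors C, FOXL2WT A or FOXL2WT B (adjusted p of 0.096 to 0.2). Of 16 steroidogenesis genes tested, HSD17B1, which makes estradiol, rose by log2 0.63 from a mean of 2.91 CPM, and HSD17B4 fell by -0.18 (6.25% each way). Both calls were unstable, kept in 3 and in 1 of the 6 fits.

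Many mitosis genes fell. They encode the spindle, the kinetochore and the kinases that drive division, and their RNA is high in G2 and M phase only. In bulk RNA fewer cells in a state and less RNA per cell cannot be told apart. Of 28 tested, 15 fell (53.6%, against 3.61% of all genes) and 0 rose, with a median log2 fold change of -0.17. MKI67, the proliferation antigen, was at 40.8, 32.6 and 29.6 CPM in Vectors and 17.5, 19.3 and 18.7 CPM in FOXL2WT (log2 -0.90 ± 0.17, adjusted p = 0.0033). CENPF, of the kinetochore, was at 64.5, 51.4 and 52.8 CPM in Vectors and 31.1, 32.4 and 36.1 CPM in FOXL2WT (log2 -0.76 ± 0.19). For both genes Vectors A was the highest library, and all FOXL2WT libraries lay below all Vectors libraries.

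The mitosis count depends on single libraries and on the fit. It was 1 without Vectors A, 8 without Vectors B, 2 without FOXL2WT A, 3 without FOXL2WT B, and 4 under DESeq2 with transcript length offsets. MKI67 kept its call in all 6 fits without a library, and CENPF lost it without Vectors A, FOXL2WT A or FOXL2WT B (adjusted p of 0.1 to 0.13). Of 30 genes of DNA replication tested, 2 fell (6.67%, against 3.61% of all genes), among them TYMS at log2 -0.15. The MCM helicase genes MCM2 to MCM7 lay between -0.03 and 0.06. CDK4 and the CDK inhibitor CDKN2C fell by log2 -0.13 and -0.32 among 16 cyclins, kinases and inhibitors (12.5%). Of 15 replication-dependent histone genes, 1 fell (6.67%), H4C8. TYMS, CDK4 and H4C8 lost their calls in 5, 3 and 4 of the 6 fits.

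The CHR element of late cell cycle genes was searched as TTTGAA on both strands. It was in 9.64% of the matched promoters of genes tested (15.4% of all promoters), in 18.4% of those of the lower DEGs, in 8.06% of those of the higher DEGs, in 15 of the 22 matched mitosis genes tested (68.2%), and in 9 of the 12 matched that fell (75%). None of the letter patterns searched contains another. The window of MKI67 (chr10:128126424-128126673, minus strand) is shown as the called gene of the list with the smallest p among those with a match before the start, with matches in capitals that begin 47 and 29 bases before the start.
MKI67: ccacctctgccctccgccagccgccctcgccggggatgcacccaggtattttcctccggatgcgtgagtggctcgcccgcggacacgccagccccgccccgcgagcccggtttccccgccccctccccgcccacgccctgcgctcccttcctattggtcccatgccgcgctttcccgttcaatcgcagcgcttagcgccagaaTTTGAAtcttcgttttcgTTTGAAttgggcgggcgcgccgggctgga

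Several sterol genes fell. SREBF2 and SREBF1 encode the factors that raise cholesterol and fatty acid synthesis, and granulosa cells use cholesterol as the substrate of steroids. Of 26 tested, 9 fell (34.6%, against 3.61% of all genes) and 0 rose, and 8 fell without any one library. ABCA1, which exports cholesterol, was at 13.8, 14.7 and 15.4 CPM in Vectors and 7.72, 10.7 and 8.76 CPM in FOXL2WT (log2 -0.70 ± 0.11, adjusted p = 0.0011), with no overlap between the conditions. SCD, SREBF1, HMGCS1 and IDI1 fell by log2 -0.40, -0.51, -0.31 and -0.23, while SREBF2, at -0.12, was not called.

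Of 28 immediate early genes, which answer growth and stress signals within minutes, 4 rose (14.3%, against 2.46% of all genes) and 1 fell (3.57%, against 3.61%). SGK1 and MYC rose by log2 0.33 and 0.31 and KLF4 fell by -0.31, ATF3 being given above, while FOS and JUN were not called at 0.02 and 0.14. DUSP1, at 0.27, lost its call whichever library was left out, and KLF4 in 4 of the 6 fits. TXNRD1, a thioredoxin reductase of the NRF2 programme, rose from 1631 ± 16.2 to 2022 ± 82.6 CPM (adjusted p = 3.4e-05). The other called NRF2 genes were SLC7A11, which rose, and AKR1C3, which fell. Of the 22 genes tested on this list, 9.09% rose and 4.55% fell. AKR1C3 had means under 1 CPM, 0.945 in Vectors and 0.181 in FOXL2WT (log2 -2.39 ± 0.48), and its reads can be split with its AKR1C relatives. PTGIS, the prostacyclin synthase, fell from 204 ± 25 to 137 ± 13.4 CPM (adjusted p = 0.00029) and the noncoding RNA NEAT1 from 49.1 ± 2.12 to 33.8 ± 3.23 CPM (adjusted p = 0.0018). IGFBP6, which binds IGF2, fell by log2 -0.46. Among 33 p53 target and apoptosis genes, SESN2 and GADD45B rose by log2 0.57 and 0.39 (6.06%, against 2.46% of all genes) and 0 fell. SESN2 is also on the ATF4 list. FOXC1 rose by log2 0.60 and FOXM1 fell by -0.23 among 17 endogenous forkhead genes (5.88% each way). SOD2 and CITED2 were the called genes among 23 FOXO targets (4.35% each way), at -0.49 and 0.22. CITED2 was called in 1 of the 6 fits without a library.

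Outside these lists, 6 of the 12 genes with the lowest log2 fold changes among DEGs of at least 5 CPM were STC1, RIPOR3, MTSS1, ANGPTL2, RAB27B and ABI3BP. STC1, a secreted glycoprotein hormone, had means of 8.58 ± 1.36 CPM in Vectors and 4.71 ± 0.624 CPM in FOXL2WT (log2 -0.86 ± 0.15). The 5 others had log2 fold changes of -0.78, -0.77, -0.73, -0.73 and -0.68, and RIPOR3 and ABI3BP each lost their call in 4 of the 6 fits without a library. ABI3BP was at 0.43 under DESeq2 with transcript length offsets.

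Other programmes had few called genes. Over all genes tested, 2.46% rose and 3.61% fell. Of 22 Notch and Hedgehog genes 1 fell (4.55%), NOTCH3 at log2 -0.46. Of 29 receptor tyrosine kinase and IGF genes 3 rose (10.3%), ROR1, IGFBP5 and EPHA2, and 2 fell (6.9%), IGFBP6 and DDR1. Of 29 lysosome and autophagy genes 2 fell (6.9%), CTSB and CTSL at log2 -0.16 and -0.13. Of 29 genes of glycolysis and hypoxia, VEGFA rose and NDRG1 fell by log2 -0.19 (3.45% each way). Of 12 mitochondrially encoded genes 1 rose (8.33%), MT-CO3 at log2 0.26. On the metallothionein list, which also holds SLC30A1 and MTF1, 0 of 9 genes were called by edgeR, and 0 under every alternative. By edgeR 0 had an unadjusted p under 0.05, MT1A having a log2 fold change of -0.61 and an adjusted p of 0.44. The calls of NOTCH3, NDRG1, CTSB, CTSL, MT-CO3, ROR1, IGFBP5, EPHA2 and DDR1 were lost in 3 to 6 of the 6 fits without a library.

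By edgeR, 0 of 78 cytosolic ribosomal protein genes and 0 of 63 nuclear-encoded genes of oxidative phosphorylation were called, with median log2 fold changes of 0.07 and 0.02. The ribosomal genes leaned upward without passing the test, 69 of 78 being positive, against 50.9% of all genes tested. At an unadjusted p under 0.05, 6 ribosomal genes were higher and 0 lower, and 4 genes of oxidative phosphorylation were higher and 1 lower. DESeq2 called 2 and 0 genes of these lists, and up to 10 ribosomal genes were called under the other alternatives. The ribosomal transcripts have a median length of 622 bases, and without Vectors A their median log2 fold change was 0.03. The part of transcript length in it was not tested. Of 46 chromatin remodelers and histone modifiers, 3 fell (6.52%, against 3.61% of all genes), among them CHD3 and SMARCC2 at log2 -0.43 and -0.27. On this list 42 of 46 values were negative, and the median transcript length was 4938 bases. The alternatives gave 0 to 22 falling chromatin genes, and 7 with the length and GC offsets. Without Vectors A, and likewise without FOXL2WT B, 0 fell.

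Side by side with the other conditions, ASNS, PSAT1 and SLC7A5 were above Vectors in every library that received SMAD3, and the levels of SMAD3 and FOXL2 differed between these conditions as given above. ASNS had means of 146.5 CPM in Vectors, 245 in FOXL2WT, 199.8 in FOXL2C134W, 213 in FOXL2WT + FOXO1 and 205 in FOXL2C134W + FOXO1. It was higher in FOXL2WT than in FOXL2C134W by log2 0.29 (adjusted p = 0.0045), and PSAT1 by 0.25 (adjusted p = 0.0083). Of the 37 ATF4 targets, 16 differed between FOXL2WT and FOXL2C134W, against 11.2% of all genes tested. The transporter SLC7A5 did not pass that test, with a difference of 0.09 (adjusted p = 0.35), nor did CCN2 with 0.07 (adjusted p = 0.39) and TM4SF1 with 0.04 (adjusted p = 0.59).

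Of the 28 cytokines tested, 9 differed between FOXL2WT and FOXL2C134W, against 11.2% of all genes tested. CXCL8 had means of 143.5 CPM in Vectors, 97.5 in FOXL2WT, 53.5 in FOXL2C134W, 87.0 in FOXL2WT + FOXO1 and 49.2 in FOXL2C134W + FOXO1, and FOXL2WT was above FOXL2C134W by log2 0.86 (adjusted p = 5.5e-07). NFKBIA and RSAD2 were also higher in FOXL2WT than in FOXL2C134W, by 0.38 (adjusted p = 6.4e-06) and 0.51 (adjusted p = 0.00013), whereas CCL2, with means of 68.9 and 58.3 CPM, and TNFSF10, with 0.34 (adjusted p = 0.11), did not pass.

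The means of ATF3 and MKI67 lay on opposite sides of Vectors with the 2 forms of FOXL2, and FOXL2C134W against Vectors was not tested here. ATF3 had means of 28.9 CPM in Vectors, 41.7 in FOXL2WT and 21.5 in FOXL2C134W, a difference of log2 0.95 between the 2 forms (adjusted p = 5.8e-07). MKI67 had means of 34.3, 18.5 and 54.8 CPM in the same order, a difference of -1.57 (adjusted p = 1.3e-05). For MKI67 the libraries of FOXL2C134W, at 39.9 to 63.9 CPM, overlapped those of Vectors, at 29.6 to 40.8 CPM. For ATF3 these 2 conditions did not overlap. COL5A1 and HSPG2 were lower in FOXL2WT than in FOXL2C134W by log2 -0.56 (adjusted p = 3.8e-05) and -0.89 (adjusted p = 2.5e-05).

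**Figure D5:**
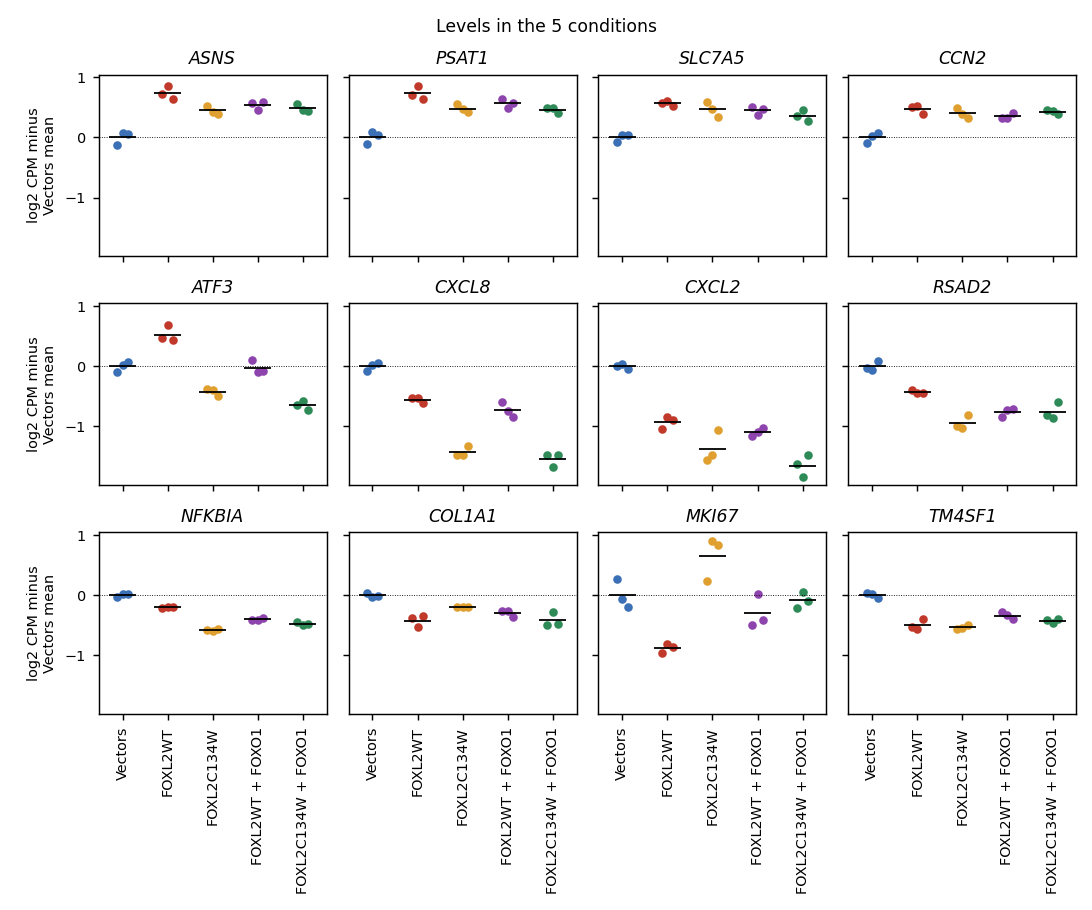
Log2 CPM minus the mean of the Vectors libraries (vertical axis) in each library of the 5 conditions (horizontal axis) for 12 genes, with points for libraries and lines for means. ASNS, PSAT1, SLC7A5 and CCN2 lie above 0 in all 4 conditions that received SMAD3, CXCL8, CXCL2, RSAD2 and NFKBIA below it, and ATF3 lies above 0 in FOXL2WT and below it in FOXL2C134W.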

How the data were processed

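RNA of 15 libraries was sequenced as 75-bp single-end reads from stranded mRNA libraries. The authors deposited estimated counts made with Salmon 1.1.0 on hg38 transcripts, summed to 37787 genes and rounded, without normalization, and transcript tables with estimated counts, lengths and TPM. DESeq2 is also named in the submitters' processing notes. The deposited TPM served here only as weights for the length and GC content of each gene. The GENCODE release of the authors is not given in the sources used here, and gene coordinates are from GENCODE 44 (GRCh38).

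Members and gene lists were chosen with earlier results of these data known. All 15 libraries were fitted with edgeR 4.0.16 (R 4.3.3): filterByExpr, TMM, a term per condition and the quasi-likelihood F test, with a Benjamini-Hochberg adjusted p under 0.05 as the call. SEs are the log2 fold change over the root of F. Replicates differed by more than counting noise (chi-square of 2.2 to 4.15 per degree of freedom), and intervals from counts were not used. Named genes were the 12 highest and 12 lowest log2 fold changes among DEGs of at least 5 CPM with non-overlapping libraries, the 8 smallest p beside these, and up to 4 risers and 4 fallers per list by p, with the smallest p where none was called. Other list members were named after their values were seen. DESeq2 1.42.0, other scalings and filters, the 6 libraries alone, a replicate block and fits without each library were alternatives. Some genes of the lists are counted but not reported here by name.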

Additional observations from a re-analysis of the deposited data

How the results depend on the processing

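The count of DEGs in FOXL2WT against Vectors (842, with 341 higher and 501 lower) was 1345 (522 and 823) with genes of at least 1 count in any library, 1690 (738 and 952) with only the 6 libraries compared, 456 (201 and 255) under DESeq2 with transcript length offsets, and 1567 (702 and 865) with offsets for transcript length and GC content, an alternative chosen after seeing the data. It was 305 to 662 when 1 library was left out (136 to 263 higher and 169 to 399 lower). DESeq2 gave 983, the size factors of DESeq2 856 and a minimum of 10 counts in every library 941. The cause of these differences was not tested.

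The replicate block gave 836 DEGs (320 and 516). Same-letter libraries of both conditions had deviations correlated at 0.146, 0.366 and 0.0667 for A, B and C. Libraries with different letters had correlations from -0.267 to 0.18, and not every library correlated best with its own letter. These values do not settle whether the letters pair the libraries, and the main fit used no pairing.

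Of the 138 named genes, ABI3BP (0.43) and LTBP3 (0.057) changed direction under DESeq2 with transcript length offsets, where 42 others lost their call. Between 14 and 40 named genes lost their call when 1 library was left out, and 0 reversed. The median log2 fold changes of the ATF4, cytokine, collagen, basement membrane and mitosis lists kept their sign in every alternative, and those of 10 lists with medians near 0 did not in some. STAR and CYP11A1, genes of a few CPM, rest on 33 to 88 and 16 to 48 counts per library.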
